A study of Mus musculus and Homo sapiens with 14 samples.

Results

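Plasma cells secrete antibody, and every antibody chain enters the endoplasmic reticulum (ER) unfolded. A set of 42 genes for ER chaperones, the unfolded protein response (UPR) and ER-associated degradation (ERAD) was followed through a study of the transcription factor IRF4. Members came by symbol from a list that was chosen with earlier results of these data known. The shares of all genes set beside member counts below therefore describe the set and do not test it. All 42 members were found among 26221 named mouse genes and among 27945 named human genes. They were grouped into 10 chaperones of the HSP70 and HSP90 families and their partners, 3 lectin chaperones and glycoprotein folding factors, 9 protein disulfide isomerases, 3 prolyl isomerases, 5 sensors and regulators, 10 ERAD genes and 2 other ER proteins.

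The study sequenced RNA of 14 libraries, 10 from mouse and 4 from human cells, with 18738283 to 27003585 counts each. Splenic plasma cells came from C57BL/6 donor bone marrow of genotype Irf4 flox/- (2 libraries) or Irf4 flox/+ (2 libraries), given to congenically marked hosts together with uMT bone marrow. Both genotypes received tamoxifen on days 1, 2, 7 and 8 and were harvested on day 14, so the flox/+ controls also carry 1 floxed allele and had the same drug. The labels give neither the Cre driver nor the age of the animals. Cell lines were MPC-11, a mouse plasmacytoma, and MM.1S, a human myeloma. Each carried Cas9 and either an IRF4 guide RNA, labelled Irf4 -/-, or an empty vector, labelled WT. Both lines had doxycycline and were sorted on day 3 of deletion, with 2 libraries per condition. Wild-type C57BL/6 bone marrow plasma cells and splenic follicular B cells gave 1 library each. Nothing in the labels says whether libraries of a group are separate animals or cultures, so p-values measure only the spread between these libraries.

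The ER holds proteins that bind unfolded chains, that form and rearrange disulfide bonds, and that add and trim sugars as a timer for folding. Chains that fail are moved back to the cytosol and degraded, which is ERAD. Load on this system is read by the sensors IRE1 (Ern1), ATF6 and PERK (Eif2ak3), which raise chaperone genes through the factors XBP1, ATF6 and ATF4. Plasma cells are known for a greatly enlarged ER that depends on XBP1.

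The targeted gene was lower with the guide in both lines and was not lower in the libraries labelled flox/-. Irf4 stood at 82.6 and 99.8 CPM (a read count relative to its TMM-scaled library size, within a comparison) in flox/- cells and at 114 and 53.8 CPM in flox/+ cells. In MPC-11 it was 276 and 146 CPM with the guide and 467 and 496 CPM with the empty vector. In MM.1S it was 142 and 191 CPM with the guide and 489 and 434 CPM with the empty vector. A count per gene does not show whether floxed exons were lost. Here and below, flox/- and flox/+ cells are the libraries labelled so, and the direction of each splenic difference rests on those labels. Plasma cell markers were abundant in all plasma cell and tumour libraries. Their summed level, TMM-scaled over all libraries of the species, was 32256 to 35007 CPM in flox/- cells and 76242 to 96002 CPM in flox/+ cells. As a share of counts without such scaling, they took 2.74% and 2.98% in flox/- cells and 3.74% and 4.16% in flox/+ cells. The markers in this sum did not all move alike. Sdc1 and Xbp1 were lower in flox/- cells without overlap, at log2 fold changes of -1.22 and -1.46. Prdm1 and Irf4 overlapped between genotypes, at 0.22 and 0.12. The other markers in the sum are not given singly here.

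Other cell types moved with the splenic comparison. All 12 macrophage and monocyte markers had counts in at least 1 flox/- library, and their sum was 776 to 8129 CPM in flox/- cells and 230 to 583 CPM in flox/+ cells. T cell markers (11 genes) summed to 206 to 587 CPM in flox/- cells and to 16.6 to 38.1 CPM in flox/+ cells. NK cell markers (8 genes) summed to 47.6 to 133 CPM in flox/- cells and 13.6 to 21.9 CPM in flox/+ cells. The 7 erythroid markers in the table summed to 47.3 to 852 CPM in flox/- cells and to 4.87 to 44.0 CPM in flox/+ cells. The 10 B cell markers overlapped, at 2321 to 3034 CPM in flox/- cells and 2089 to 2707 CPM in flox/+ cells. The part of these cells in the ER results below was not tested, and fewer plasma cells cannot be told apart from less RNA per plasma cell in bulk libraries.

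In splenic plasma cells, 38 of the 42 genes were lower in flox/- cells than in flox/+ cells and 4 were higher, against 45.7% of all 11887 genes tested that were lower. The median log2 fold change was -0.77 over the members and 0.09 over all genes. For 30 members both flox/- libraries lay below both flox/+ libraries, against 18.3% of all genes; for 1 member, Pdia5, both lay above, against 25.7% of all genes; and 11 overlapped. No member, and 0% of all genes, passed an adjusted p of 0.05 in edgeR's quasi-likelihood test. At an unadjusted p under 0.05, edgeR gave 15 lower members and 0 higher ones, beside 3.85% of all genes that were lower and 8.63% that were higher. At an adjusted p under 0.05, DESeq2 called 8 members lower, beside 1.7% of all genes.

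The sign of that median depends on the scale, because immunoglobulin RNA filled most of these libraries. Immunoglobulin genes took 56.3% and 52.8% of counts in flox/- cells and 72.2% and 73.4% in flox/+ cells. With fold changes scaled to library size alone, the member median was 0.12, with 14 members lower and 28 higher, and the median of all genes was 0.98. Relative to the median of all genes the members stood at -0.85 under both scalings. A change of library scale moves all genes of a comparison by about the same amount, so this gap cannot test the scaling. Lower here means lower than other genes. On the authors' log2 FPKM values, which are per length and appear adjusted between libraries in a way no label describes, the member median was -0.53 and that of all genes -0.17, a gap of -0.36. The 42 genes took 1.61% and 1.85% of all counts in flox/- cells and 1.63% and 1.58% in flox/+ cells, and the groups overlapped (exact permutation test, two-sided p = 0.667). Of the counts without immunoglobulin they took 3.68% and 3.91% in flox/- cells and 5.84% and 5.95% in flox/+ cells, without overlap. That exact permutation test gave p = 0.333, the smallest that 2 against 2 libraries allow.

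**Figure D1:**
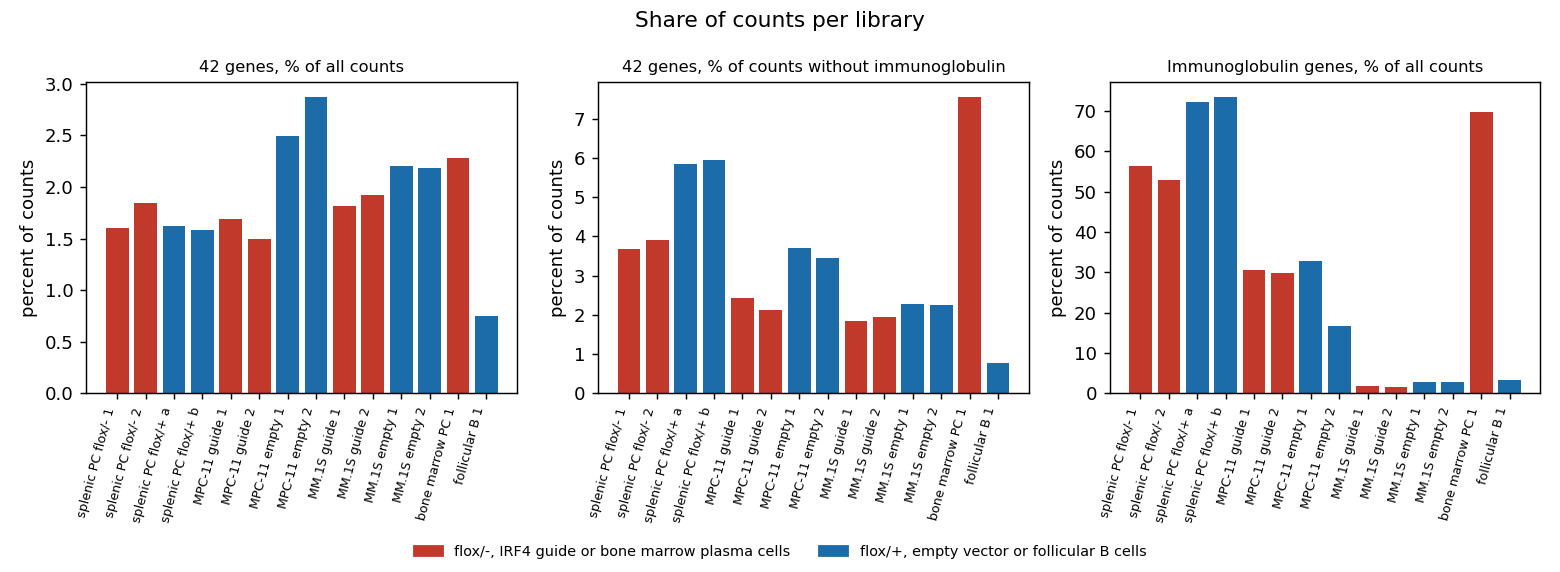
Percent of counts in each library taken by the 42 genes (left, of all counts; middle, of counts without immunoglobulin genes) and by immunoglobulin genes (right). In flox/- plasma cells the share of all counts overlaps that of flox/+ cells, while the share without immunoglobulin is 3.68% and 3.91% in flox/- cells and 5.84% and 5.95% in flox/+ cells.

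Among the HSP70 and HSP90 chaperones and partners, all 10 were lower in flox/- cells, 8 of them without overlap. Dnajb9 (ERdj4; chr12:44205897-44210068 in GRCm38), a DnaJ partner of the HSP70 BiP that also restrains IRE1, stood at 12.4 and 12.3 CPM in flox/- cells and at 41.8 and 28.4 CPM in flox/+ cells. Its log2 fold change was -1.51 ± 0.37 (SE, n = 2 per group here and in all 3 comparisons; edgeR adjusted p = 0.275, DESeq2 adjusted p = 0.0208). Sdf2l1 (chr16:17130138-17132383), a partner of the DnaJ protein ERdj3, stood at 308 and 266 CPM in flox/- cells and at 560 and 804 CPM in flox/+ cells, a log2 fold change of -1.25 ± 0.34 (edgeR adjusted p = 0.283, DESeq2 adjusted p = 0.0144). For both genes the flox/- libraries were close to each other and well below either control. BiP itself (Hspa5), which binds unassembled antibody heavy chains, had 1098 and 1229 CPM in flox/- cells and 1634 and 2122 CPM in flox/+ cells, a log2 fold change of -0.69 ± 0.34 (edgeR adjusted p = 0.522). Hyou1, the nucleotide exchange partner of BiP, overlapped, with 19.7 and 39.0 CPM in flox/- cells and 93.1 and 36.2 CPM in flox/+ cells.

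Promoters of these genes are known for ER stress response elements (ERSE), read by ATF6 with NF-Y, and for related elements read by XBP1. They are shown because they mark which members carry the letters through which the UPR is known to act. RefSeq promoters (GRCm38.p6), from 250 bases before to 50 bases after each start, were held for 36 of the 42 members. ERSE was searched as CCAAT and CCACG separated by any 9 bases, on both strands, and was found in 9 of the 36 members (25.0%), against 0.137% of 27025 genes. Both fixed parts are in capitals in the elements below, each read 5′ to 3′ along the ERSE. Calr also held a match, not shown.
Hspa5: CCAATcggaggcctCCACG
Hsp90b1, farther match: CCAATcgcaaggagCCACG
Hsp90b1, nearer match: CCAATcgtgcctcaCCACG
Creld2: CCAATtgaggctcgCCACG
Dnajc3: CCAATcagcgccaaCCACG
Pdia6: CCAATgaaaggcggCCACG
Canx: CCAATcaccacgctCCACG
Derl3: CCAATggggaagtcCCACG
Syvn1: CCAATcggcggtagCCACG

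The Hspa5 element lay 65 to 47 bases before the start, in a promoter on the plus strand at chr2:34771840-34772139. The Hsp90b1 promoter, on the minus strand at chr10:86705395-86705694, held a match on each strand, the farther one in its own reading direction and the nearer one reversed. Both promoters are printed 5′ to 3′ along the gene, with the matches in capitals.
Hspa5: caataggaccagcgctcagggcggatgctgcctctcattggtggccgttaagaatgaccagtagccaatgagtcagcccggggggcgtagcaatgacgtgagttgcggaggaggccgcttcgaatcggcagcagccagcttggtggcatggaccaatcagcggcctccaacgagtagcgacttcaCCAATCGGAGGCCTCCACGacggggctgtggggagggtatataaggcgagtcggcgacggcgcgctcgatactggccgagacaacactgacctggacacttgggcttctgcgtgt
Hsp90b1: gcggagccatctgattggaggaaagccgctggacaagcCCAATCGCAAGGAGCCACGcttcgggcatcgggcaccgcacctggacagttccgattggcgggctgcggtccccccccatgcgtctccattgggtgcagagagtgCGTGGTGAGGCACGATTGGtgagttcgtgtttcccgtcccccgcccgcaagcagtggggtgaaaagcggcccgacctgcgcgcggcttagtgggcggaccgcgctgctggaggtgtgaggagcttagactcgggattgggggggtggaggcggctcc

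ERSE-II, searched as ATTGG and CCACG separated by any 1 base, was found in Dnajb11 and Herpud1 (5.56%), against 0.0444% of genes, and the first is shown with its fixed parts in capitals below.
Dnajb11: ATTGGcCCACG

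UPRE, searched as TGACGTGG, was found in Txndc11 and Txndc5 (5.56%, against 0.714% of genes). It ends in CGTGG, which is CCACG read on the other strand. In all, 13 of the 36 held at least 1 of these 3 motifs (36.1%, against 0.884%). The IRF motifs EICE (GGAA and GAAA separated by any 2 bases) and ISRE (GAAA and GAAA separated by any 2 bases) were found in 2 members and 1 member (5.56% and 2.78%), against 3.16% and 3.99% of genes. In splenic plasma cells the 9 members with an exact ERSE match were all lower in flox/- cells, with a median log2 fold change of -0.70. The 23 members without an exact match to the 3 UPR motifs had a median of -0.83. Because some of these may hold variant elements, the medians do not compare genes with and without UPR elements. In MPC-11 these medians were -0.51 and -0.47 and in MM.1S, by the mouse promoter of the same symbol, -0.11 and -0.21. In splenic cells the ERSE members spanned -0.95 to -0.10, inside the -1.56 to 1.88 of those without an exact match.

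The lectin group was mixed. Calr (calreticulin), which holds glycoproteins with trimmed sugars, had 314 and 312 CPM in flox/- cells and 560 and 492 CPM in flox/+ cells (log2 fold change -0.75 ± 0.30, edgeR adjusted p = 0.401). Its membrane-bound relative Canx (calnexin) and Uggt1, the sensor enzyme that marks misfolded glycoproteins again, overlapped between genotypes, at log2 fold changes of -0.10 and 0.19.

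Of the 9 disulfide isomerases, 8 were lower, 7 without overlap. P4hb, the founding protein disulfide isomerase (chr11:120560298-120573253), stood at 200 and 267 CPM in flox/- cells and at 515 and 484 CPM in flox/+ cells, a log2 fold change of -1.10 ± 0.32 (edgeR adjusted p = 0.285, DESeq2 adjusted p = 0.0180). Txndc11 (chr16:11074911-11134645), a thioredoxin-like partner of the EDEM enzymes, had 280 and 326 CPM in flox/- cells and 567 and 661 CPM in flox/+ cells, a log2 fold change of -1.02 ± 0.31 (edgeR adjusted p = 0.293, DESeq2 adjusted p = 0.0241). Pdia5 went the other way near the bottom of the measured range, with 2.85 and 2.26 CPM in flox/- cells and 1.23 and 0.159 CPM in flox/+ cells. Its log2 fold change of 1.88 ± 1.23 had an edgeR adjusted p = 0.670, and its SE is the largest of the 42.

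All 3 prolyl isomerases, which turn proline bonds during folding, were lower. Fkbp11 (chr15:98724368-98728198), an isomerase abundant in secretory cells, had 39.8 and 32.5 CPM in flox/- cells and 76.8 and 102 CPM in flox/+ cells, a log2 fold change of -1.30 ± 0.32 (edgeR adjusted p = 0.275, DESeq2 adjusted p = 0.0191). Ppib (cyclophilin B) had a log2 fold change of -0.71 without overlap, and Fkbp2 one of -0.80 with overlap.

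The sensors did not separate the genotypes. Ern1 had 15.1 ± 5.8 CPM (SD) in flox/- cells and 47.4 and 7.31 CPM in flox/+ cells, whose 2 count columns bear the same name and are told apart as a and b. Atf6 had 70.0 and 52.7 CPM in flox/- cells and 117 and 39.4 CPM in flox/+ cells. In both, the flox/+ libraries lay on either side of the flox/- libraries. Eif2ak3 and the ATF6-activating protease Mbtps1 also overlapped, at log2 fold changes of 0.09 and 0.12. Creb3l2 (chr6:37327255-37442276), a membrane-bound bZIP factor of secretory cells, had the lowest log2 fold change of the 42, -1.56 ± 0.55 (edgeR adjusted p = 0.335). It had 18.0 and 22.8 CPM in flox/- cells and 88.4 and 31.8 CPM in flox/+ cells.

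All 10 ERAD genes were lower, 9 without overlap. Edem2 (chr2:155701673-155729475), which trims mannose from misfolded glycoproteins and so sends them to ERAD, had the smallest p of the 42. It stood at 410 and 385 CPM in flox/- cells and at 966 and 1044 CPM in flox/+ cells, a log2 fold change of -1.34 ± 0.31 (edgeR adjusted p = 0.275, DESeq2 adjusted p = 0.000315). Edem1 (chr6:108824045-108859356) had 523 and 435 CPM in flox/- cells and 848 and 1249 CPM in flox/+ cells, a log2 fold change of -1.13 ± 0.36 (edgeR adjusted p = 0.299, DESeq2 adjusted p = 0.0425). Edem3 overlapped, with 12.7 and 28.6 CPM in flox/- cells and 71.9 and 14.7 CPM in flox/+ cells. The ligase pair Sel1l and Syvn1 (HRD1), which ubiquitinates ERAD substrates, had log2 fold changes of -0.83 and -0.70. Of the remaining members, Mzb1 (pERp1), an ER protein of plasma cells and marginal zone B cells that helps antibody assembly, had 902 and 937 CPM in flox/- cells and 1842 and 1780.3 CPM in flox/+ cells. That is a log2 fold change of -0.98 ± 0.31 (edgeR adjusted p = 0.301, DESeq2 adjusted p = 0.0129). Ckap4, which shapes ER sheets, had one of -0.85 ± 0.32 (edgeR adjusted p = 0.360).

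Flox/+ libraries a and b differed with transcript length, and the part of this in the sensor values was not tested. Over 11769 genes with a known exonic length, split by length into 4 equal bins, the median log2 ratio of library a to b was -0.30 in the shortest bin and 0.56 in the longest. The median of the comparison itself was -0.17 in the shortest bin and 0.34 in the longest. The 42 members were of average length, with a median of 3132 exonic bases, against 3072 over all genes. With the median of genes of like length subtracted, the member median was -0.84 and 41 members were lower, a check chosen after the data were seen. Such a subtraction makes about as many genes lower as higher by construction. This count therefore cannot be set against the count of lower members before subtraction.

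In MPC-11, 35 of the 42 genes were lower with the guide than with the empty vector and 7 were higher, against 51.5% of all 10670 genes tested that were lower. The median log2 fold change was -0.51 over the members and -0.02 over all genes. For 25 members both guide libraries lay below both empty-vector libraries, against 16.5% of all genes; for 1, Mzb1, both lay above, against 16.9%; and 16 overlapped. No member passed an adjusted p of 0.05 in edgeR, beside 0.0187% of all genes. At an unadjusted p under 0.05 edgeR gave 12 lower members and 0 higher ones, beside 2.56% of all genes that were lower and 3.49% that were higher. At an adjusted p under 0.05, DESeq2 called 6 members lower, beside 0.459% of all genes. The 42 genes took 1.59% ± 0.13 of all counts with the guide and 2.68% ± 0.26 with the empty vector (SD), so the groups did not overlap on this scale either (exact permutation p = 0.333, the smallest possible). Immunoglobulin genes took 30.5% and 29.7% of counts with the guide and 32.8% and 16.7% with the empty vector. B cell markers summed to 593 to 607 CPM with the guide and 189 to 302 CPM with the empty vector, on 3 or 4 of 10 genes with counts, and Pax5 and Cd79a were at 0 in all 4 libraries. Plasma cell markers summed to 10750.1 to 13084 CPM with the guide and 8287 to 10618 CPM with the empty vector. Neither sum overlapped between groups, and their part in the ER results was not tested. Macrophage and monocyte markers overlapped, at 1009 to 1420 CPM with the guide and 1241 to 1322 CPM with the empty vector. Their counts came from 2 or 3 of 12 genes, with Csf1r, Adgre1, Lyz2 and the C1q genes at 0. T, NK and erythroid markers summed to at most 1.77 CPM.

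The chaperones of the HSP70 and HSP90 group were the lowest by median, at -1.01, with 9 of 10 lower and 9 without overlap. Hsp90b1 (GRP94), the ER member of the HSP90 family, had 996 and 944 CPM with the guide and 1908 and 2456 CPM with the empty vector. Its log2 fold change was -1.17 ± 0.28 (edgeR adjusted p = 0.498, DESeq2 adjusted p = 0.00491). Hspa5 had 1256 and 1219 CPM with the guide and 2964 and 2204 CPM with the empty vector, or a log2 fold change of -1.06 ± 0.29 (edgeR adjusted p = 0.528, DESeq2 adjusted p = 0.0179). In both genes the guide libraries lay close together and well under either control.

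Creld2, an ER protein induced by ER stress, had 319 and 289 CPM with the guide and 871 and 537 CPM with the empty vector, or a log2 fold change of -1.21 ± 0.33 (edgeR adjusted p = 0.528, DESeq2 adjusted p = 0.0237). Dnajb11 (ERdj3), which hands unfolded chains to BiP, had 71.8 and 71.8 CPM with the guide and 147 and 149 CPM with the empty vector, or a log2 fold change of -1.04 ± 0.29 (edgeR adjusted p = 0.528, DESeq2 adjusted p = 0.0480). Manf, a secreted ER stress protein that binds BiP, had 81.4 and 82.3 CPM with the guide and 190 and 144 CPM with the empty vector, or a log2 fold change of -1.03 ± 0.30 (edgeR adjusted p = 0.559, DESeq2 adjusted p = 0.0841). The exception was Dnajc3 (p58IPK), another DnaJ partner of BiP, which overlapped at a log2 fold change of 0.06.

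All 9 disulfide isomerases were lower with the guide, 6 without overlap. Txndc11 had the smallest p of the 42, with 146 and 134 CPM with the guide and 364 and 329 CPM with the empty vector, or a log2 fold change of -1.31 ± 0.28 (edgeR adjusted p = 0.453, DESeq2 adjusted p = 0.000817). Pdia4 (ERp72) had 642 and 509 CPM with the guide and 1185 and 958 CPM with the empty vector, or a log2 fold change of -0.90 ± 0.30 (edgeR adjusted p = 0.615). The lectin group again held Calr without overlap (-0.51) and Canx and Uggt1 with overlap (-0.18 and 0.04), and the 3 prolyl isomerases were lower, at -0.68 to -0.27.

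Among the sensors, Ern1 did separate the groups in MPC-11. It had 121 and 126 CPM with the guide and 274 and 230 CPM with the empty vector, or a log2 fold change of -1.03 ± 0.29 (edgeR adjusted p = 0.530, DESeq2 adjusted p = 0.0367). Atf6 was also lower without overlap (-0.60), while Eif2ak3, Mbtps1 and Creb3l2 overlapped. Of the 10 ERAD genes 9 were lower, but only 5 without overlap. Their lowest was Derl2, a rhomboid-like channel protein of ERAD, at -0.88, and their highest Herpud1, a scaffold of the HRD1 complex, at 0.42 with overlapping groups. Mzb1 was at a few CPM in this line, with 3.13 and 5.45 CPM with the guide and 2.22 and 0.776 CPM with the empty vector (log2 fold change 1.52 ± 1.09, edgeR adjusted p = 1.00). Length differences between libraries were seen here too. Over 10551 genes the median log2 ratio of empty-vector library 1 to 2 was 0.46 in the shortest of 4 bins and -0.55 in the longest. For guide library 1 to 2 it was -0.20 in the shortest bin and 0.17 in the longest. The median of the comparison itself was -0.19 in the shortest bin and 0.18 in the longest.

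In MM.1S, 31 of the 42 genes were lower with the guide than with the empty vector and 11 were higher, against 49.3% of all 12696 genes tested that were lower. The median log2 fold change was -0.20 over the members and 0.01 over all genes. For 19 members both guide libraries lay below both empty-vector libraries, against 18.9% of all genes; for 3, DNAJC10, DERL3 and CRELD2, both lay above, against 22.4%; and 20 overlapped. No member passed an adjusted p of 0.05 in edgeR, beside 0.00788% of all genes. At an unadjusted p under 0.05 there were 4 lower members, beside 4.58% of all genes, and 2 higher ones, beside 5.42%. DESeq2 called 3 members lower at an adjusted p under 0.05, beside 1.41% of all genes. The 42 genes took 1.81% and 1.92% of all counts with the guide and 2.21% and 2.18% with the empty vector (exact permutation p = 0.333, the smallest possible). B cell markers summed to 120 to 139 CPM with the guide and 74.4 to 90.3 CPM with the empty vector, on 3 of 10 genes with counts, and MS4A1 and PAX5 were at 0. Plasma cell markers summed to 11661 to 12482 CPM with the guide and 9543 to 11351 CPM with the empty vector, and T cell markers to 8.92 to 11.1 CPM with the guide and 2.97 to 5.06 CPM with the empty vector, with CD3D, CD3G and CD4 at 0. These 3 sums did not overlap between groups, and their part in the ER results was not tested. Macrophage and monocyte markers overlapped, at 96.5 to 125 CPM with the guide and 97.1 to 137 CPM with the empty vector.

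SEL1L, the adaptor that links substrates to the HRD1 ligase, had the lowest log2 fold change of the 42 in the human line. It had 191 and 160 CPM with the guide and 611 and 421 CPM with the empty vector, or a log2 fold change of -1.56 ± 0.24 (edgeR adjusted p = 0.202, DESeq2 adjusted p = 1.12e-07). MANF had 32.4 and 30.5 CPM with the guide and 72.3 and 70.3 CPM with the empty vector, or a log2 fold change of -1.18 ± 0.22 (edgeR adjusted p = 0.220, DESeq2 adjusted p = 0.000703). In both genes each guide library had less than either control. Both passed edgeR's threshold when empty-vector library 1 was left out, with adjusted p = 0.00780 for SEL1L and 0.0249 for MANF, beside 2.17% of 13298 genes that were lower in that fit. Without empty-vector library 2, SEL1L (edgeR adjusted p = 0.00531) and the isomerase TXNDC5 (edgeR adjusted p = 0.0315) passed, beside 0.415% of genes that were lower. Without either guide library no member passed, beside 0.0149% and 0% of genes.

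TXNDC5 (ERp46), a disulfide isomerase abundant in plasma cells, had 584 and 581 CPM with the guide and 1171 and 783 CPM with the empty vector, or a log2 fold change of -0.75 ± 0.23 (edgeR adjusted p = 0.346, DESeq2 adjusted p = 0.0428). HERPUD1 had 1848 and 1606 CPM with the guide and 2778 and 2145 CPM with the empty vector, or a log2 fold change of -0.51 ± 0.18 (edgeR adjusted p = 0.419). PDIA6 (P5) had 959 and 1024 CPM with the guide and 1224 and 1348 CPM with the empty vector, or a log2 fold change of -0.38 ± 0.16 (edgeR adjusted p = 0.504). The isomerases and prolyl isomerases leaned one way by small amounts: all 9 and all 3 were lower, with medians of -0.29 and -0.25. CREB3L2 had 63.1 and 70.2 CPM with the guide and 136 and 79.2 CPM with the empty vector (-0.69 ± 0.30, edgeR adjusted p = 0.509), and the other sensors overlapped.

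In the opposite direction, DNAJC10 (ERdj5), a reductase that opens disulfide bonds for ERAD, had 245 and 280 CPM with the guide and 180 and 171 CPM with the empty vector. Its log2 fold change was 0.58 ± 0.19 (edgeR adjusted p = 0.372). DERL3, the Derlin of secretory cells, had 390 and 422 CPM with the guide and 290 and 283 CPM with the empty vector, or a log2 fold change of 0.50 ± 0.18 (edgeR adjusted p = 0.402). The BiP gene HSPA5 overlapped, with 1528 and 1982 CPM with the guide and 1627 and 2112 CPM with the empty vector, or a log2 fold change of -0.09 ± 0.21.

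**Figure D2:**
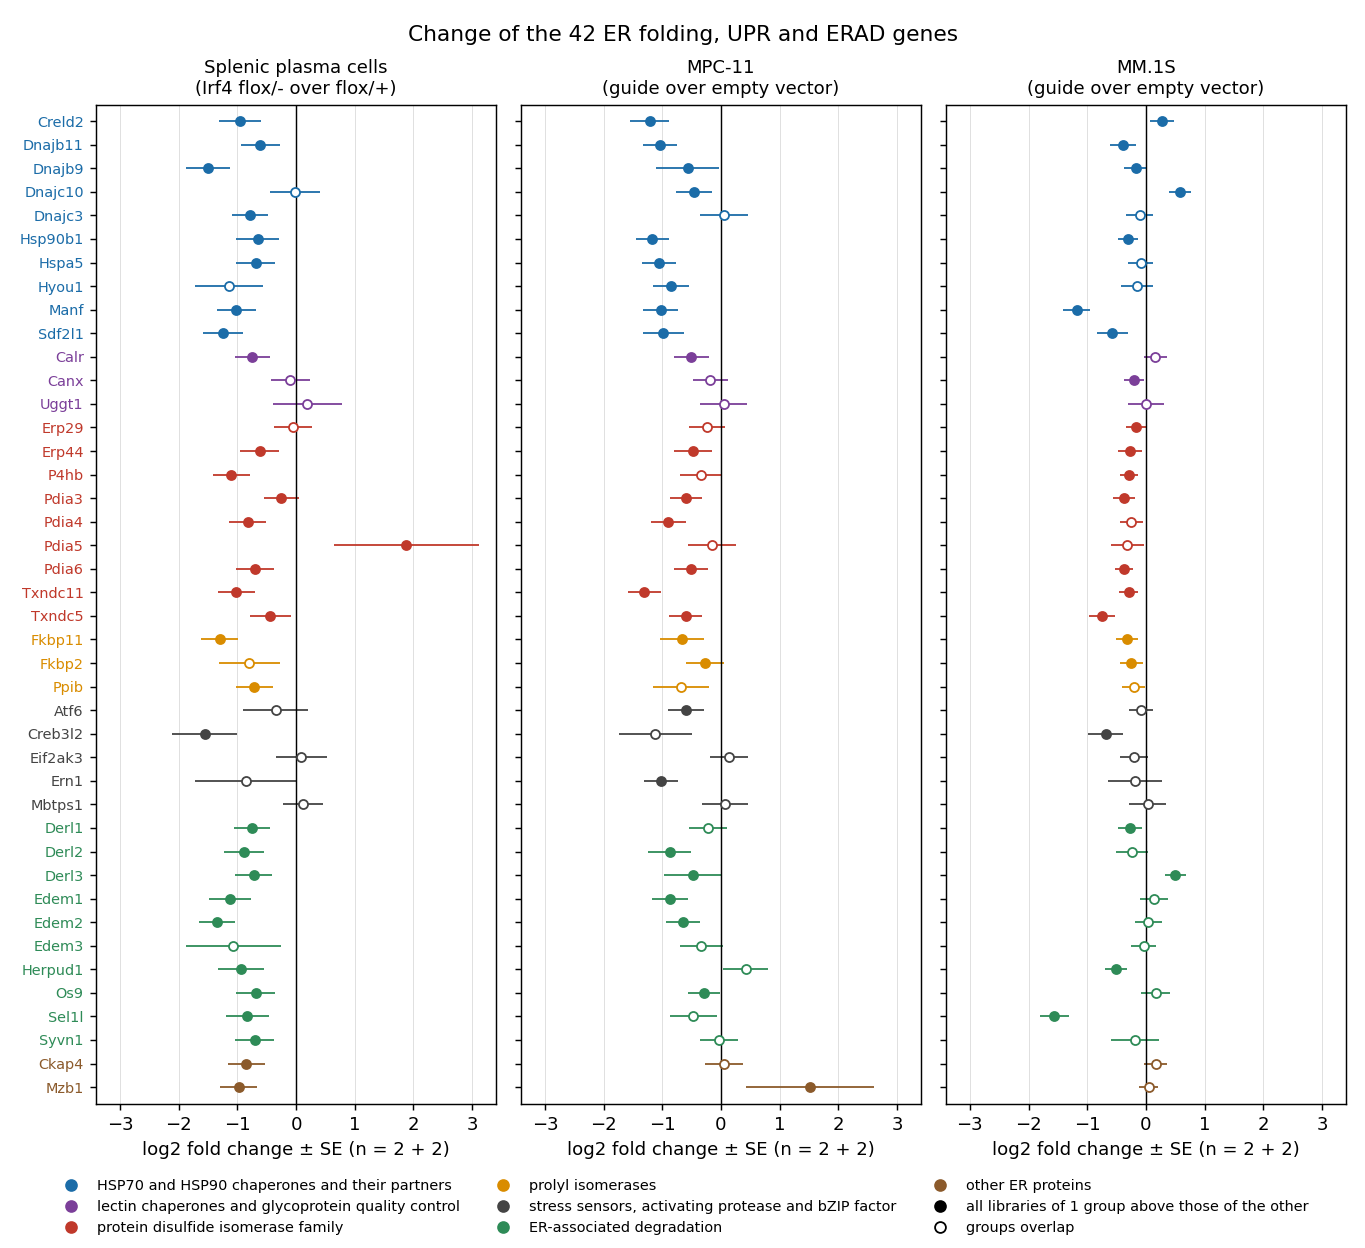
Log2 fold change with its SE for each of the 42 genes, ordered and coloured by role, in splenic plasma cells (Irf4 flox/- over flox/+), MPC-11 and MM.1S (guide over empty vector), 2 libraries per group. Filled points mark genes whose groups do not overlap; most points lie left of 0 in the mouse comparisons (medians -0.77 and -0.51) and nearer to 0 in MM.1S (median -0.20).

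The 3 comparisons share no library. Counts of lower members in this paragraph use TMM scaling within each comparison. At library size alone the splenic median was 0.12 over the members and 0.98 over all genes. Of the 42 genes, 27 were lower in all 3, against 16.6% of the 8045 genes tested in all 3 and matched between species by symbol. Both targeted libraries lay below both controls in all 3 comparisons for 11 members, against 1.38% of those genes. They were the chaperones and partners Hsp90b1, Dnajb9, Dnajb11, Sdf2l1 and Manf, the isomerases Pdia3, Pdia6, Txndc5, Txndc11 and Erp44, and the prolyl isomerase Fkbp11. None of the ERAD genes, lectin chaperones or sensors was among them. On the authors' log2 FPKM values Txndc5 and Pdia3 overlapped between genotypes in splenic cells, and Dnajb9 overlapped between groups in MPC-11. Over the 2 mouse comparisons alone, 20 members were lower without overlap in both, against 4.34% of the 9710 genes tested in both, among them Hspa5, Creld2, Calr, Pdia4, Edem1 and Edem2. Uggt1 and Mbtps1 had positive values in all 3, each between 0.00 and 0.19 and with overlapping groups.

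**Figure D3:**
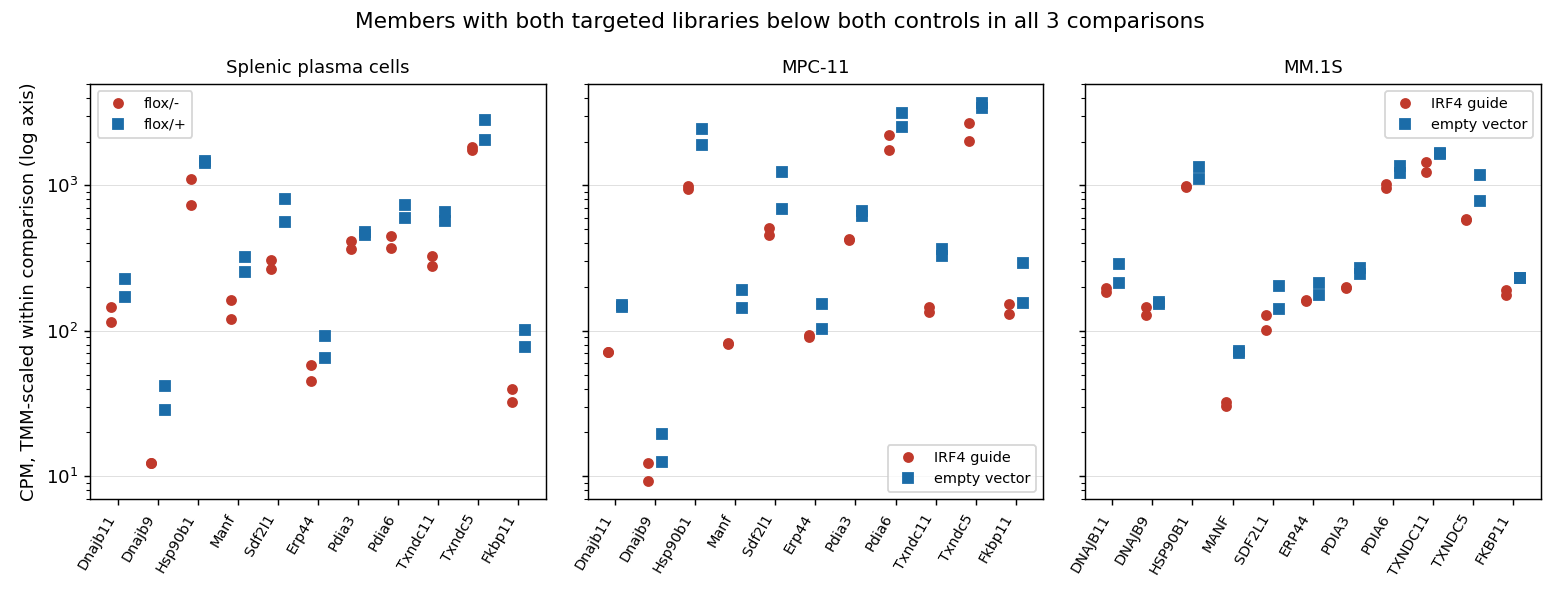
TMM-scaled CPM per library (log axis) of the 11 genes whose targeted libraries (red circles) both lie below both control libraries (blue squares) in each of the 3 comparisons. Values are scaled within a comparison, so heights compare libraries inside a panel. Gaps between groups differ by panel. Dnajb9, for example, has 12.4 and 12.3 CPM in flox/- cells and 41.8 and 28.4 CPM in flox/+ cells. In MPC-11 it has 9.35 and 12.3 CPM with the guide and 19.6 and 12.5 CPM with the empty vector. In MM.1S it has 129 and 145 CPM with the guide and 158 and 153 CPM with the empty vector.

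The splenic and MPC-11 effects were compared directly by an interaction contrast over 8 libraries. No member, and 0% of 12993 genes, passed an adjusted p of 0.05 in edgeR. DESeq2 called 1 member at an adjusted p under 0.05, beside 1.4% of all genes. At an unadjusted p under 0.05 edgeR gave 1 member, beside 6.21% of all genes. That member was Mzb1, with a difference in log2 fold change, splenic minus MPC-11, of -2.50 ± 0.71 (SE; edgeR adjusted p = 0.511). Next came Herpud1 (-1.35 ± 0.64, edgeR adjusted p = 0.858), Ckap4 (-0.90 ± 0.43, edgeR adjusted p = 0.860) and Pdia5 (2.07 ± 1.04, edgeR adjusted p = 0.883). Mzb1 and Pdia5 each rest on a line or tissue in which the gene had at most 5.45 CPM.

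The other genes of the pathway, 62 on a list of UPR factors, further folding enzymes and further ERAD genes, had medians nearer to 0. In splenic plasma cells 39 of the 54 tested were lower, with a median log2 fold change of -0.27, and 0 passed in edgeR. An unadjusted edgeR p under 0.05 was seen for 8 lower and 2 higher ones, beside 3.85% and 8.63% of all genes. At an adjusted p under 0.05, DESeq2 called 3 lower, beside 1.7%. In MPC-11 34 of 53 were lower, with a median of -0.22, and 0 passed in edgeR or DESeq2, with 1 lower at an unadjusted p under 0.05, beside 2.56% of all genes. In MM.1S 39 of 59 were lower, with a median of -0.14, and 0 passed in edgeR. At an unadjusted edgeR p under 0.05, 5 were lower, beside 4.58% of all genes. At an adjusted p under 0.05, DESeq2 called 2 lower, beside 1.41%.

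Xbp1, the factor that IRE1 activates by splicing, had unlike values in the 3 systems. It stood at 1233 and 1106 CPM in flox/- cells and 2746 and 3677 CPM in flox/+ cells, a log2 fold change of -1.46 ± 0.35 (edgeR adjusted p = 0.275, DESeq2 adjusted p = 0.000757). It had, in MPC-11, 2215 and 2165 CPM with the guide and 2700 and 2622 CPM with the empty vector (-0.28 ± 0.26, edgeR adjusted p = 1.00). In MM.1S it had 2223 and 2238 CPM with the guide and 2211 and 2249 CPM with the empty vector (0.00 ± 0.14, edgeR adjusted p = 1.00). The differences between these systems were not tested for Xbp1, and gene counts do not show its splicing.

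On the PERK side of the response, ATF4, the factor translated when PERK is active, had 145 and 121 CPM with the guide and 351 and 193 CPM with the empty vector in MM.1S, a log2 fold change of -1.03 ± 0.31 (edgeR adjusted p = 0.343, DESeq2 adjusted p = 0.0295). Atf4 had a log2 fold change of -0.58 ± 0.31 in MPC-11 (edgeR adjusted p = 0.964) and 0.11 ± 0.30 in splenic cells (edgeR adjusted p = 0.951). Its targets Ddit3 (CHOP), a death-linked factor, and Ppp1r15a (GADD34), which restores translation, overlapped between groups in MPC-11. In MM.1S DDIT3 overlapped (-0.47 ± 0.48, edgeR adjusted p = 0.851), and PPP1R15A had 84.2 and 60.9 CPM with the guide and 122 and 85.8 CPM with the empty vector (-0.52 ± 0.28, edgeR adjusted p = 0.641). In splenic cells Ppp1r15a overlapped (0.24 ± 0.65, edgeR adjusted p = 0.947). In splenic cells Ddit3 had 23.8 and 25.1 CPM in flox/- cells and 19.9 and 10.3 CPM in flox/+ cells (0.70 ± 0.45, edgeR adjusted p = 0.665).

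Among the further folding genes, Prdx4, an ER peroxidase, had 104 and 73.4 CPM in flox/- cells and 218 and 254 CPM in flox/+ cells (-1.41 ± 0.33, edgeR adjusted p = 0.275, DESeq2 adjusted p = 0.00512). Serp1, a partner of the translocation channel, had 565 and 573 CPM in flox/- cells and 1228 and 1441 CPM in flox/+ cells (-1.23 ± 0.32, edgeR adjusted p = 0.281, DESeq2 adjusted p = 0.00179). Ppic, a cyclophilin, had 16 and 19 counts in flox/- cells and 0 in either flox/+ library (edgeR adjusted p = 0.299). In MPC-11 the ERAD mannosidase Man1b1 had 64.8 and 49.4 CPM with the guide and 134 and 97.6 CPM with the empty vector (-1.02 ± 0.34, edgeR adjusted p = 0.628). Prdx4, the glucosidase Mogs and the HSP70 relative Hspa13 followed, at -0.79, -0.69 and -0.78, all without overlap. In MM.1S HSPA13 had 41.7 and 47.4 CPM with the guide and 82.4 and 78.3 CPM with the empty vector (-0.85 ± 0.22, edgeR adjusted p = 0.310, DESeq2 adjusted p = 0.0252), and the DnaJ gene DNAJC1 and the chaperone CLGN stood at -0.65 and -1.20 without overlap.

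The bone marrow and follicular libraries show the range these genes span between a plasma cell and a resting B cell, with 1 library each and so no test. All 42 genes were higher in bone marrow plasma cells than in follicular B cells at TMM scaling over the 10 mouse libraries, against 46.8% of 11953 genes. The median fold of the members was 9.10, and 38 were at least 2-fold higher, against 24.2% of those genes. Scaled to library size alone, 31 were higher and the median fold was 2.51, and relative to counts without immunoglobulin 42 were higher with a median of 8.04. The share of all genes that were higher is not given for these other scalings. Derl3 had 12375 counts (exact Poisson 95% interval 12158 to 12595, counting error only) in bone marrow plasma cells and 103 (84.1 to 125) in follicular B cells. These counts gave a 426-fold difference at TMM scaling and a 117-fold difference at library size alone. Creb3l2 followed, from 1527 and 24 counts, with 226-fold at TMM scaling and 62.2-fold at library size alone. Next at TMM scaling were Txndc5 with 42.4-fold and Creld2 with 41.3-fold. At the low end Uggt1, Erp29, Mbtps1 and Derl2 were less than 2-fold higher at TMM scaling, Uggt1 by 1.66-fold. At library size alone they were among the members that were lower, at folds of 0.46, 0.43, 0.42 and 0.41. Neutrophil markers summed to 802 CPM in the bone marrow library and to 10.2 CPM in the follicular one, and their part in these folds was not tested.

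**Figure D4:**
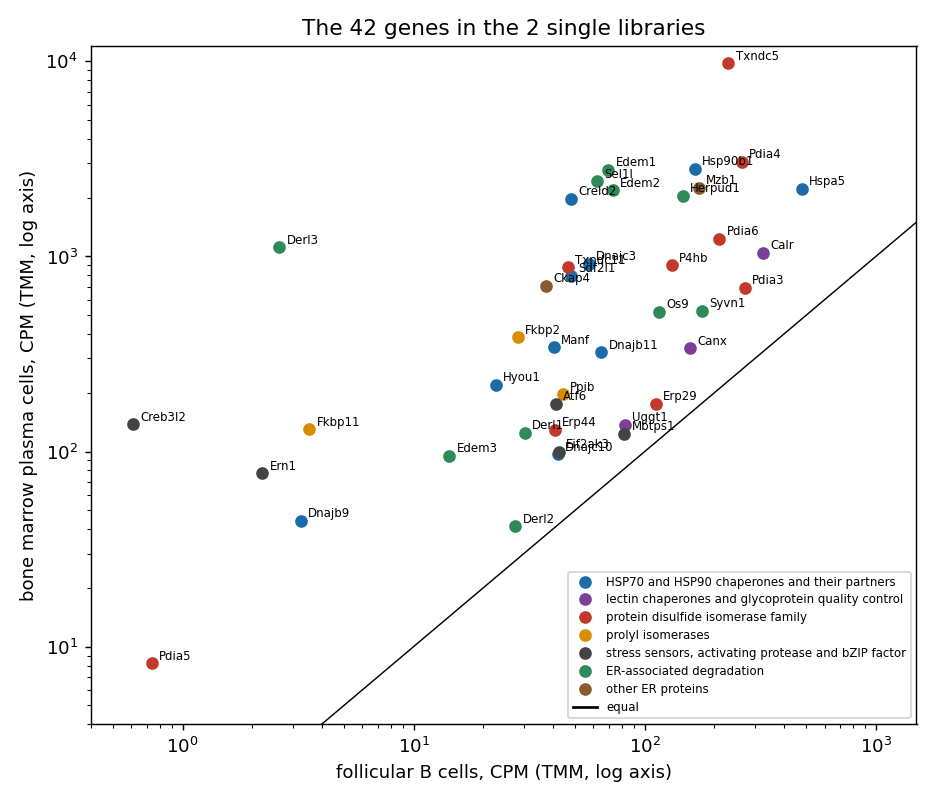
TMM-scaled CPM of the 42 genes in bone marrow plasma cells (vertical) and follicular B cells (horizontal), 1 library each, both axes logarithmic; the line marks equal levels. All 42 points lie above the line, Derl3 and Creb3l2 farthest from it at 426- and 226-fold.

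Levels between genes were compared per length, on the authors' log2 FPKM scale. Mzb1 was the highest in each splenic plasma cell library, at 11.10 and 11.66 in flox/- cells and 12.07 and 11.92 in flox/+ cells. Txndc5 had a mean of 10.82 in flox/- cells and 10.89 in flox/+ cells, and Herpud1 one of 10.29 in flox/- cells and 10.90 in flox/+ cells. In bone marrow plasma cells Txndc5 was the highest, followed by Mzb1 at 11.66. In MPC-11 the highest were Txndc5 and Pdia6, at means of 10.29 and 10.36 with the guide and 11.22 and 10.88 with the empty vector. Mzb1 was among the lowest there, at 2.79 and 3.38 with the guide and 2.49 and 1.42 with the empty vector. In MM.1S MZB1 was the highest in each library, at a mean of 10.96 with the guide and 10.88 with the empty vector, followed by P4HB and HERPUD1 at 9.75 and 9.59 with the guide and 9.99 and 10.03 with the empty vector. Pdia5 was the lowest in splenic and bone marrow plasma cells, at 1.97 and 1.66 in flox/- cells, 1.13 and -0.17 in flox/+ cells and 3.24 in bone marrow plasma cells. In MPC-11 it was higher, at means of 5.58 with the guide and 5.64 with the empty vector. Over the 42 genes the median was 7.50 and 7.40 in flox/- cells and 8.19 and 7.93 in flox/+ cells, 5.99 and 5.78 with the guide and 6.64 and 6.76 with the empty vector in MPC-11, and 6.05 and 6.09 with the guide and 6.34 and 5.99 with the empty vector in MM.1S. It was 8.16 in bone marrow plasma cells and 5.14 in follicular B cells. The groups thus separated in both mouse systems and overlapped in MM.1S.

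**Figure D5:**
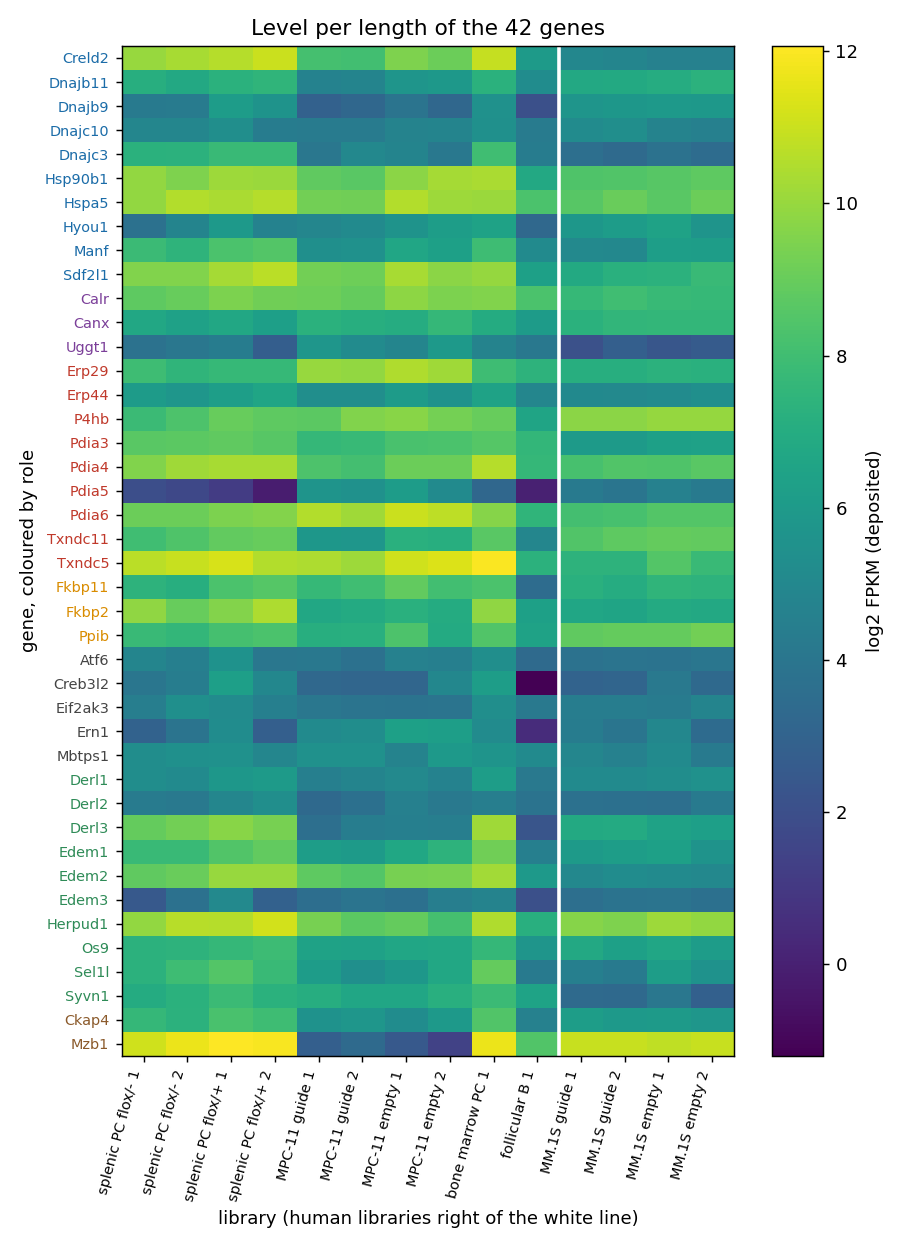
The authors' log2 FPKM of each of the 42 genes (rows, coloured by role) in each of the 14 libraries (columns), human libraries right of the white line. Mzb1 is the highest row in flox/- and flox/+ cells, at 11.10 to 12.07, and lies between 1.42 and 3.38 in MPC-11, and Creb3l2 is lowest in follicular B cells at -1.21.

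Reads can be shared between neighbours for some members. By RefSeq positions, 19 of the 42 mouse genes overlap another entry, among them Hspa5 with Rabepk and Txndc11 with Snn, and whether the counting used strand is not given in the sources used here.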

How the data were processed

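RNA of 14 libraries was analysed from the deposited gene tables. Library preparation used a transposase (Nextera) kit, per the labels' protocols. Tools listed in the submitters' processing notes are featureCounts, limma and Subread 1.6.0, and builds mm10 and hg38; settings are not given there. The authors deposited counts, whole reads per gene, for 27179 mouse and 28395 human entries; entries without a symbol held at most 0.306% of a library and were left out. The authors also deposited log2 FPKM per library (14492 mouse and 12696 human named genes); 7 of the 10 mouse tables share the same highest value, so they appear adjusted between libraries, which no label describes.

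Each comparison was fitted on its 4 libraries with edgeR 4.0.16 (R 4.3.3; TMM, filterByExpr with minimum count 10, quasi-likelihood test, Benjamini-Hochberg over all genes, threshold 0.05). All 42 members passed the filter in the 3 comparisons. DESeq2 1.42.0 and limma 3.58.1 on log2 FPKM were alternatives, as were other scalings, no filter, a replicate block and leaving out each library; the edgeR script was tested on simulated data. Shares were compared by exact permutation. Chi-square per degree of freedom between libraries of a group was 39.2 to 277, so none was a repeat deposit. Exonic lengths came from GENCODE M21. Genes given with full values were those called by edgeR or DESeq2, the 8 with the smallest edgeR p, the highest and the lowest, and of the other pathway genes Xbp1, Atf4, Ddit3, Ppp1r15a and the 4 with the smallest p; other members named were chosen after values were seen. The members and lists were chosen with earlier results of these data known. Depth (18738283 to 27003585 counts) and 2 libraries per group limit precision.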

Additional observations from a re-analysis of the deposited data

Results flagged for a closer look

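Creld2, Derl3 and Dnajc10 stood out because every library moved one way in a mouse comparison and the opposite way in MM.1S; these differences were not tested, since the species cannot enter one fit. For Creld2 the log2 fold change was -0.95 in splenic plasma cells (flox/- over flox/+) and 0.27 in MM.1S (guide over empty vector), a gap of -1.22. In MPC-11 it was -1.21, a gap to MM.1S of -1.48. For Derl3 it was -0.72 in splenic plasma cells and 0.50 in MM.1S, a gap of -1.22, and -0.48 in MPC-11, a gap of -0.98. For Dnajc10 it was -0.46 in MPC-11 and 0.58 in MM.1S, a gap of -1.04. In MPC-11 Derl3 was low, with 11.5 and 21.2 CPM with the guide and 22.0 and 23.5 CPM with the empty vector.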

How the results depend on the processing

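Of 761 values recomputed under other settings, 667 kept their direction and side of the threshold. DESeq2 called 8 members in splenic plasma cells, 6 in MPC-11, 3 in MM.1S and 1 in the difference of effects, where edgeR called 0; over all genes it called 635, 159 and 374, where edgeR called 0, 2 and 1. Library size alone turned the splenic member median to 0.12, moved that of MPC-11 to -0.67, gave 0 genes in MPC-11 and turned the Ckap4 difference of effects to 0.17. The difference in the member share of counts, flox/- minus flox/+, turned to -2.10 percentage points when immunoglobulin was left out. On log2 FPKM with limma the splenic median was -0.53 (also with the replicate block), 0 genes were called in MPC-11 and MM.1S, and Ddit3 in MPC-11 turned to 0.0863. Subtracting the median of genes of like length gave -0.84 in splenic cells and -0.48 in MPC-11. Without the filter, 32 genes were called in MPC-11 and, in MM.1S, 289 genes with 2 members, Sel1l and Manf. No label states that replicate numbers pair the samples. The correlation of same-numbered deviations was -0.01 on log2 FPKM in splenic cells, -0.08 in MPC-11 and 0.09 in MM.1S. With 2 libraries per group these values cannot show whether samples were paired. With the replicate block 0 genes passed in MPC-11, Ddit3 turned to 0.121, and 208 genes with 2 members passed in MM.1S. Leaving out 1 library each, the member median ranged from -0.82 to -0.69 in splenic cells, -0.61 to -0.44 in MPC-11 and -0.26 to -0.18 in MM.1S; 1 to 37 genes were called in MPC-11, and 0 to 966 genes and 0 to 2 members in MM.1S (966 without empty-vector library 1, 117 without empty-vector library 2). With a group left at 1 library, that library is assumed to vary like the others. Some values changed direction when 1 library was left out, and not all of them were near 0. Splenic Ppp1r15a ranged from -0.679 to 1.05, Irf4 from -0.330 to 0.758 and Atf4 from -0.00171 to 0.221. MPC-11 Ppp1r15a ranged from -0.0852 to 0.457 and Ddit3 from -0.491 to 0.764. MM.1S DDIT3 ranged from -1.05 to 0.460 and XBP1 from -0.0128 to 0.00418. XBP1 in MM.1S was also -0.0127 with DESeq2, -0.0117 without the filter and -0.0164 without immunoglobulin genes. The cause of these moves was not tested.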
